A study of Rattus norvegicus with 18 samples.

Results

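Oxidative phosphorylation genes were followed through the brains of young rats whose dams had received the brominated diphenyl ether BDE-47. The set was every probe on the array whose annotated gene symbol begins with Nduf, Uqcr, Cox followed by a digit, Atp5 or Sdha to Sdhd, or is Cycs or Cyc1. It held 77 genes with 1 probe each, of 22523 probes and 13337 gene symbols on the array, and Cyc1 was not among them. By symbol, 30 genes were grouped as complex I subunits, 7 as complex I assembly factors, 6 as complex II subunits and assembly factors and 4 as complex III. Another 1 was cytochrome c, 11 were grouped as complex IV subunits, 5 as complex IV assembly factors and 13 as complex V, the ATP synthase. The 30 include Ndufs6-ps1, named as a pseudogene, and the 11 include Cox7a2l, a factor of supercomplex assembly. Counts of subunits below keep both.

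Messenger RNA of 18 female Wistar pups was hybridised to Illumina bead arrays, 1 array per pup. Dams were injected in the tail with BDE-47 at 0.002 or 0.2 mg/kg of body weight, or with the vehicle of ethanol, Cremophor EL and sterile water that all groups share, and each of the 6 groups (2 tissues, 3 doses) held 3 pups, each from a different litter. The total brain pups were killed on postnatal day 10, their dams having had 3 injections from gestational day 15. The frontal lobe pups, on their own sample protocol, were killed on day 41 and their dams had 6 injections; the series text has day 10 for both tissues, so tissue, age and schedule differ together and cannot be told apart. The pups were exposed only through their dams, before birth or while nursing, and the frontal lobe pups were sampled after weaning. Values were on a log2-like scale as normalised by the authors, which runs here from 7.45 to 15.75 with a floor near the lower end, and differences are therefore called log2 differences.

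Oxidative phosphorylation couples the oxidation of NADH and succinate to ATP synthesis across the inner mitochondrial membrane. Complexes I and II pass electrons through ubiquinone to complex III, cytochrome c carries them to complex IV, which reduces oxygen, and complex V makes ATP from the proton gradient that complexes I, III and IV build. The brain depends on this pathway for most of its ATP, and neurons keep mitochondria in their cell bodies, dendrites and axon terminals. A bulk tissue sample cannot tell fewer cells of a kind from less of a messenger RNA per cell.

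Nuclear genes of the respiratory chain are known for promoters with sites of the transcription factors NRF1, GABPA (also called NRF-2) and YY1. RefSeq promoters on the rat build GRCr8 matched 68 of the 77 genes by Entrez identifier. Windows of 300 bases, from 250 before to 50 after the transcription start, were searched on both strands for fixed letters. The NRF1 letters (GCGCA, any base, GCGC) were in 18 of 68 promoters (26.5%) against 4.71% of 27457 rat promoters, the GABPA letters CCGGAAG in 21 (30.9%) against 9.22%, and the YY1 letters AANATGGC in 21 (30.9%) against 7.36%. At least 1 of the 3 was in 45 of the 68, against 18.8% of all promoters. Members' windows also held more CG dinucleotides, with a median of 21.0 against 7.0. Among windows with at least 15 of them, the shares were 30.2% of 53 members against 12.3% of 9509 promoters for NRF1, 28.3% against 19.1% for GABPA and 32.1% against 10.1% for YY1. The SP1 letters GGGCGG went the other way in such CG-rich windows, at 43.4% of members against 74.9%, although over all windows they were in 45.6% of members against 34.9%. The CREB letters TGACGTCA were in 4 members (5.9%, against 1.91%) and the ESRRA letters TCAAGGTCA in 2 (2.9%, against 0.412%).

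The 250 bases before the start are shown for 5 of the genes described below, with NRF1, GABPA and YY1 matches in capitals. They run 5′ to 3′ on the strand of the gene. Ndufb9, which is also called below, is among the 9 genes without a matched promoter. Sdha (chr1:30764303-30764552, plus strand) holds an NRF1 match 89 and another 46 bases before the start, and the single capital at its end opens an NRF1 match that runs into the transcript. Cox5b (chr9:46417587-46417836, plus strand) holds a GABPA match 14 bases before the start, Ndufs1 (chr9:72073606-72073855, minus strand) a GABPA and a YY1 match, and Cox15 (chr1:252571472-252571721, minus strand) an NRF1 and a GABPA match. Ndufv2 (chr9:113157521-113157770, minus strand) holds none of these letters. A match is a description of the sequence and was not measured as binding.
Sdha: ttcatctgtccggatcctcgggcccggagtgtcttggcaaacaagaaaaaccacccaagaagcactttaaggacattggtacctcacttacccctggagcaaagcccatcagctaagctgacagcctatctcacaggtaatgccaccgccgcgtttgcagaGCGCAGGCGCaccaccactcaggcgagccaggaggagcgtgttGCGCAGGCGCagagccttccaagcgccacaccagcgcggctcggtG
Cox5b: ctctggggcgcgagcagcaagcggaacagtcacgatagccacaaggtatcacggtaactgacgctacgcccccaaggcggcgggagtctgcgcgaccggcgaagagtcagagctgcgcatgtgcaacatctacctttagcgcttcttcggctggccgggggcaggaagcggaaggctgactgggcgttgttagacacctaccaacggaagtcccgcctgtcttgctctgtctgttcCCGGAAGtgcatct
Ndufs1: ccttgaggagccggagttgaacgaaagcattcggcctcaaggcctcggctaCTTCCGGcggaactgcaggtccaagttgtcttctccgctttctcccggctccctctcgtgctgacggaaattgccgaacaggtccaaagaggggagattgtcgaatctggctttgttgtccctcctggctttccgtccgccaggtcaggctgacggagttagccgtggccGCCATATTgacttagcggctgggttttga
Cox15: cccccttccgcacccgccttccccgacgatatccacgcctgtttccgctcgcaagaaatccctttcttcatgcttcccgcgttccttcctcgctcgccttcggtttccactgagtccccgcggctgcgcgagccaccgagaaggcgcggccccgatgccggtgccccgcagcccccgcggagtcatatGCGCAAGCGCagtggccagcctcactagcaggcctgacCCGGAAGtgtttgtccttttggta
Ndufv2: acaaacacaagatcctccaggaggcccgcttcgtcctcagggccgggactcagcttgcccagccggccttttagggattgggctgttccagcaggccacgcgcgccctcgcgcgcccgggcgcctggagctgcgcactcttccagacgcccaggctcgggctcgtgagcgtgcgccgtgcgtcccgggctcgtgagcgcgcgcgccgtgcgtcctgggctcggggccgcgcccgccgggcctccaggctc

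Most of the genes gave bright probes. Their mean signal over all 18 arrays had a median of 12.40, against 7.87 over all probes, and 60 of the 77 had a mean of at least 10, as had 14.7% of all probes. Another 8 had a mean under 8, near the floor, where differences are compressed: Ndufb4, Ndufs4, Ndufs6-ps1 (named as a pseudogene), Cox8b, Cox8c, Cox18, Cox20 and Atp5mc3. Cox8b and Cox8c are known as muscle and testis isoforms of a complex IV subunit. The spread between pups of a group was wider for these genes (median SD 0.107, n = 3 per group) than over all probes (median SD 0.0426), most of which lie near the floor.

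**Figure D1:**
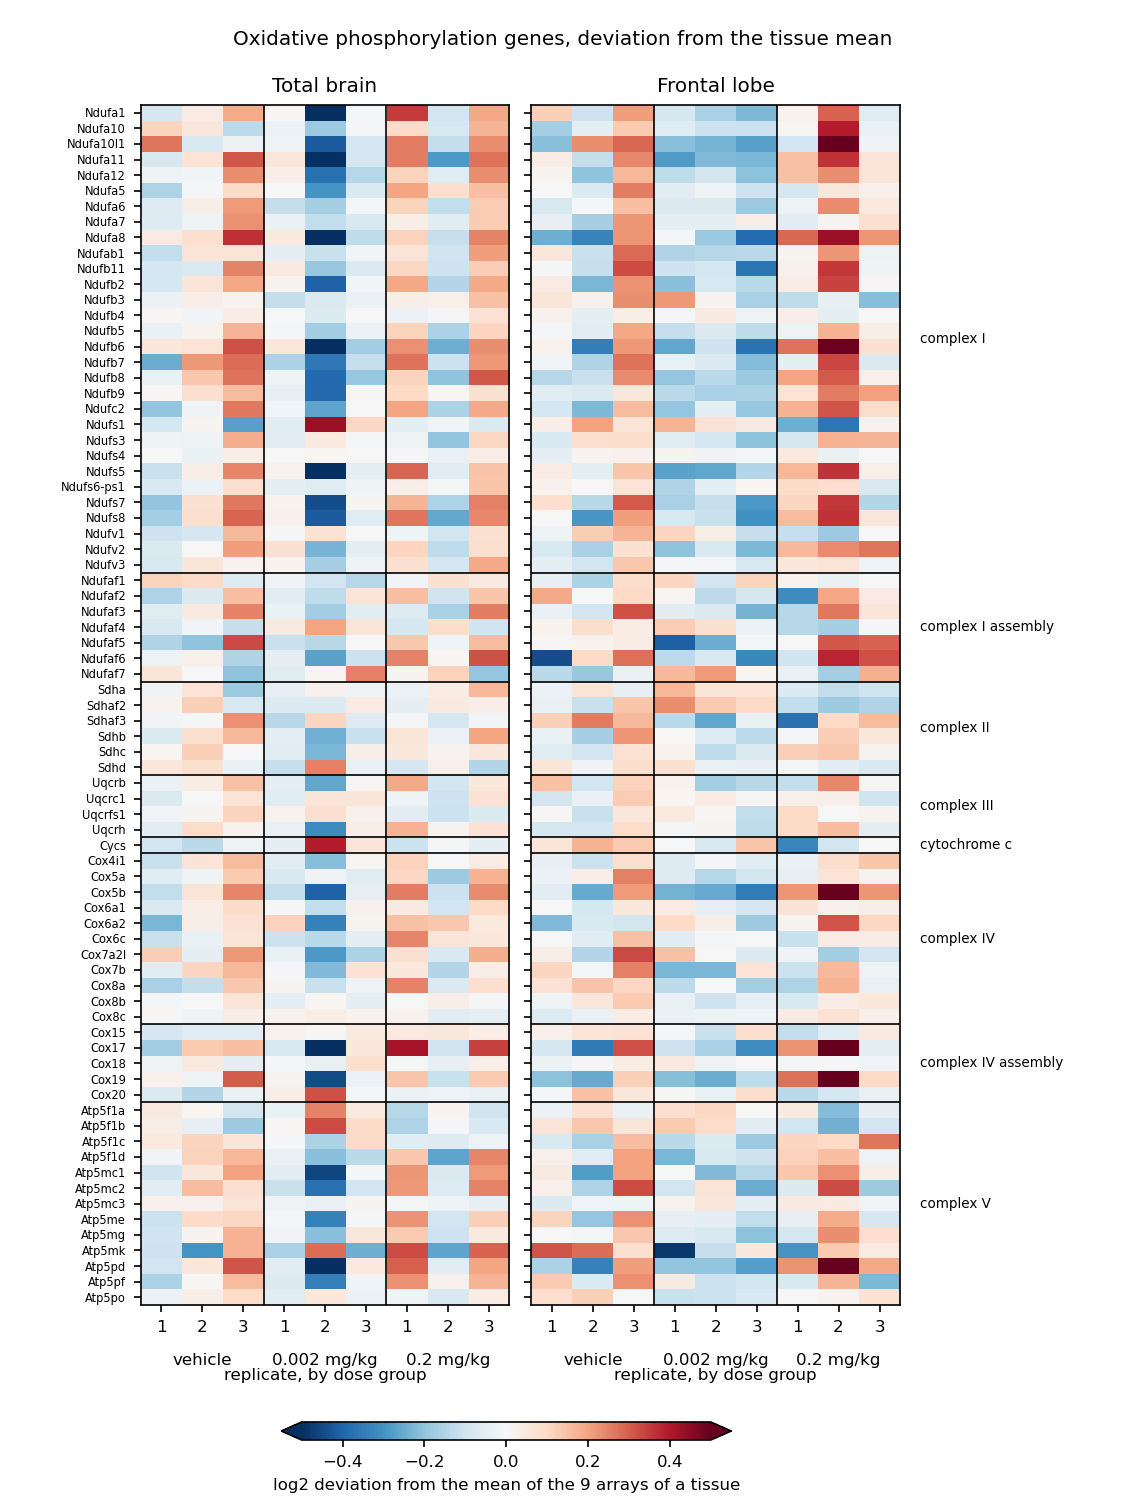
Log2 deviation of each of the 77 genes (rows, by complex) from its mean over the 9 arrays of a tissue, on each array (columns, by dose group and replicate). Red is above and blue below the tissue mean, and columns lean to 1 colour: 92.2% of the genes lie above the mean in frontal lobe vehicle replicate 3 and 75.3% in frontal lobe 0.2 mg/kg replicate 2, against 26.0% in total brain 0.002 mg/kg replicate 2.

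Many of the genes moved together from array to array, as the heat map of deviations shows. In total brain, the median deviation of the 77 genes from their tissue means was -0.06, 0.03 and 0.14 in the 3 vehicle arrays, -0.03, -0.17 and -0.01 at 0.002 mg/kg and 0.10, -0.07 and 0.12 at 0.2 mg/kg. The lowest array was 1 pup of the 0.002 mg/kg group, and the 3 groups overlapped. In frontal lobe, the same medians were -0.01, -0.07 and 0.14 for vehicle, -0.06, -0.08 and -0.12 at 0.002 mg/kg and 0.00, 0.16 and 0.02 at 0.2 mg/kg. There the arrays of both BDE-47 groups did not overlap, while the vehicle arrays spanned both. The 65 cytosolic ribosomal protein genes, which are not part of the respiratory chain, had medians of -0.090, -0.075 and 0.075 for vehicle, -0.094, -0.116 and -0.133 at 0.002 mg/kg and 0.063, 0.251 and 0.106 at 0.2 mg/kg in frontal lobe, and their lowest array in total brain was the same pup, at -0.289. Their part in the shifts of the respiratory genes was not tested.

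**Figure D2:**
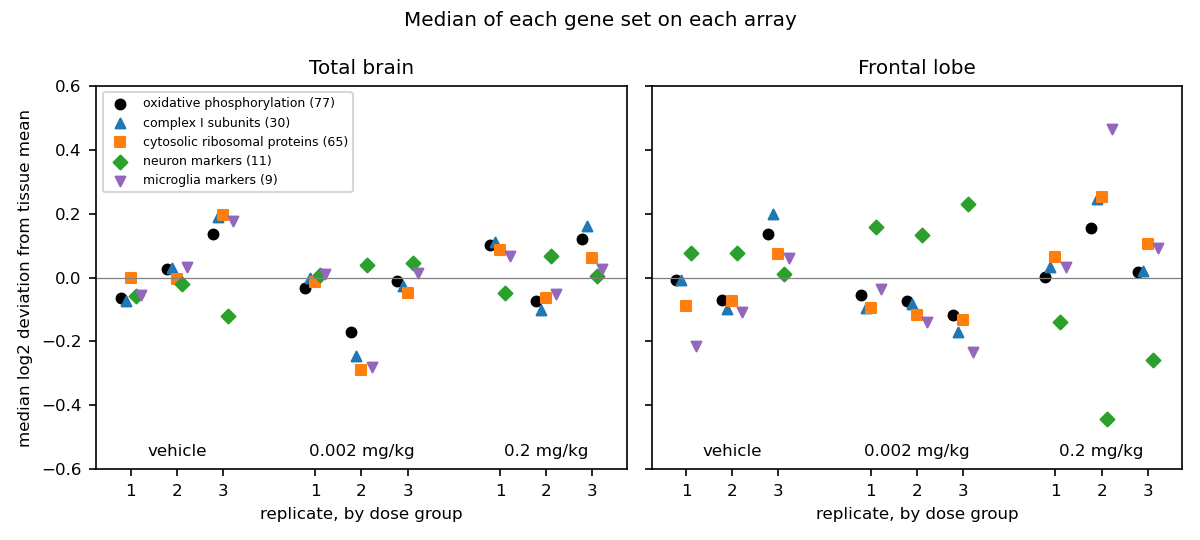
Median log2 deviation from the tissue mean (y axis) of the 77 oxidative phosphorylation genes, the 30 complex I subunits, 65 ribosomal protein genes, 11 neuron markers and 9 microglia markers on each array (x axis). Respiratory and ribosomal medians are both lowest in total brain on 0.002 mg/kg replicate 2 and both highest in frontal lobe on 0.2 mg/kg replicate 2, and in frontal lobe the neuron markers lie below 0 on all 3 arrays at 0.2 mg/kg.

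The difference between the doses in frontal lobe was the only dose comparison in which members passed the test (limma, with p-values adjusted over all probes by Benjamini and Hochberg and a threshold of 0.05). In that comparison 4 of 77 genes passed (5.19%), beside 2.87% of all probes: Ndufb9, Ndufv2 and Cox5b were higher at 0.2 than at 0.002 mg/kg (3 genes, beside 1.43% of probes called higher) and Sdha was lower (1 gene, beside 1.44% called lower). At an unadjusted p under 0.05, 22 genes were higher (28.6% of the genes, beside 9.33% of all probes) and 5 lower (6.49%, beside 9.40%). Bright probes passed more often: among probes with a mean of at least 10, 7.95% passed the adjusted test, and among the 60 members that bright 6.67% did. The median difference over the 77 genes was 0.12, with 59 above 0, while the median over all probes was 0.00. Of the 22523 probes, 12871 had a mean under 8, against 8 of the 77 genes. The unadjusted shares and medians, here and below, are therefore set beside probes that are mostly dimmer than the members.

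Complex I, the NADH dehydrogenase that feeds electrons into the chain, had a median difference of 0.23 over 30 subunits in this comparison, with 26 above 0. Ndufv2, a core iron-sulfur subunit of its NADH-oxidising module, read 12.95, 12.87 and 13.11 in the vehicle arrays of frontal lobe, 12.83, 12.96 and 12.80 at 0.002 mg/kg and 13.19, 13.27 and 13.30 at 0.2 mg/kg. All 3 arrays at the higher dose lay above the other 6. The difference between doses was 0.39 (SE 0.07, adjusted p = 0.0288), and against vehicle it was 0.28 (adjusted p = 0.0961). Ndufb9, an accessory subunit of the membrane arm, read 14.39, 14.38 and 14.51 for vehicle, 14.32, 14.29 and 14.29 at 0.002 mg/kg and 14.52, 14.71 and 14.65 at 0.2 mg/kg. Its 3 groups did not overlap, in the order 0.002 mg/kg, vehicle, 0.2 mg/kg, and the doses differed by 0.33 (SE 0.05, adjusted p = 0.0254).

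Further complex I subunits were higher at 0.2 mg/kg without passing. Ndufs5, an accessory subunit of the membrane arm, differed by 0.41 (adjusted p = 0.0518), Ndufa11, of the same arm, by 0.43 (adjusted p = 0.0641) and Ndufb6, also of that arm, by 0.52 (adjusted p = 0.120). Ndufs1, the largest core iron-sulfur subunit, ran the other way. It read 11.93, 12.09 and 11.95 in vehicle, 12.06, 11.96 and 11.94 at 0.002 mg/kg and 11.65, 11.53 and 11.91 at 0.2 mg/kg, so that all arrays at the higher dose lay below the 6 others. The difference of -0.29 did not pass (adjusted p = 0.140). Of the assembly factors, Ndufaf5, known in human cells to modify a subunit of the growing complex, differed by 0.42 (adjusted p = 0.0876) and Ndufaf4 by -0.16 (adjusted p = 0.151).

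Complex II, which oxidises succinate and also belongs to the citric acid cycle, did not share the shift of complex I: its median was 0.03 over 6 genes, with 3 above 0. Sdha, the flavoprotein that holds the catalytic site, read 11.90, 12.00 and 11.89 in vehicle, 12.10, 11.99 and 12.00 at 0.002 mg/kg and 11.87, 11.81 and 11.83 at 0.2 mg/kg. The higher dose lay below all 6 other arrays. Sdha fell by 0.19 between the doses (SE 0.04, adjusted p = 0.0493). Sdhaf2, the factor that attaches FAD to the Sdha protein, read 10.47, 10.37 and 10.33 at 0.002 mg/kg and 10.11, 10.06 and 10.09 at 0.2 mg/kg, without overlap. Its difference of -0.30 just missed the threshold (SE 0.06, adjusted p = 0.0521). Of the other subunits, the membrane anchor Sdhc differed by 0.15 (adjusted p = 0.213), the iron-sulfur subunit Sdhb by 0.12 and the other membrane anchor Sdhd by -0.05.

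Complex III passes electrons from ubiquinol to cytochrome c, and its 4 genes had a median difference of 0.08 with none past the threshold. Its hinge subunit Uqcrh differed by 0.11 (adjusted p = 0.493). Cycs, cytochrome c itself, read 14.25, 14.37 and 14.32 in vehicle, 14.19, 14.11 and 14.33 at 0.002 mg/kg and 13.86, 14.10 and 14.20 at 0.2 mg/kg. The doses overlapped, while every array at 0.2 mg/kg lay below the vehicle arrays. The difference from vehicle was -0.26 (adjusted p = 0.214).

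Complex IV, cytochrome c oxidase, had 10 of 11 subunit genes above 0 between the doses, with a median of 0.10. Cox5b, a zinc-binding nuclear subunit, read 12.79, 12.59 and 13.06 in vehicle, 12.61, 12.59 and 12.49 at 0.002 mg/kg and 13.07, 13.34 and 13.06 at 0.2 mg/kg. All 3 arrays at the higher dose lay above the other 6, and the 0.002 mg/kg arrays overlapped only the lowest vehicle array. Cox5b rose by 0.59 between doses (SE 0.12, adjusted p = 0.0461), the largest difference among the 77 genes in this comparison. The assembly gene Cox19, which acts in copper delivery in the intermembrane space, differed by 0.51 (adjusted p = 0.0834), and Cox17, the copper chaperone, by 0.42 (SE 0.19, adjusted p = 0.287).

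Complex V had 11 of 13 genes above 0 between the doses, with a median of 0.13, and none passed. Atp5pd, a subunit of the peripheral stalk, read 11.09, 10.91 and 11.46 in vehicle, 11.05, 11.05 and 10.97 at 0.002 mg/kg and 11.47, 11.80 and 11.44 at 0.2 mg/kg. Its difference between doses was 0.54 (SE 0.14, adjusted p = 0.0901), with no overlap of the doses. Atp5po, the stalk subunit that makes the synthase sensitive to oligomycin, differed by 0.13 (adjusted p = 0.103). Atp5f1b, the catalytic beta subunit, was among the genes on the lower side. It read 14.67, 14.75 and 14.67 in vehicle, 14.74, 14.70 and 14.56 at 0.002 mg/kg and 14.52, 14.37 and 14.52 at 0.2 mg/kg, with the higher dose below all other arrays, and differed from vehicle by -0.23 (adjusted p = 0.113).

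**Figure D3:**
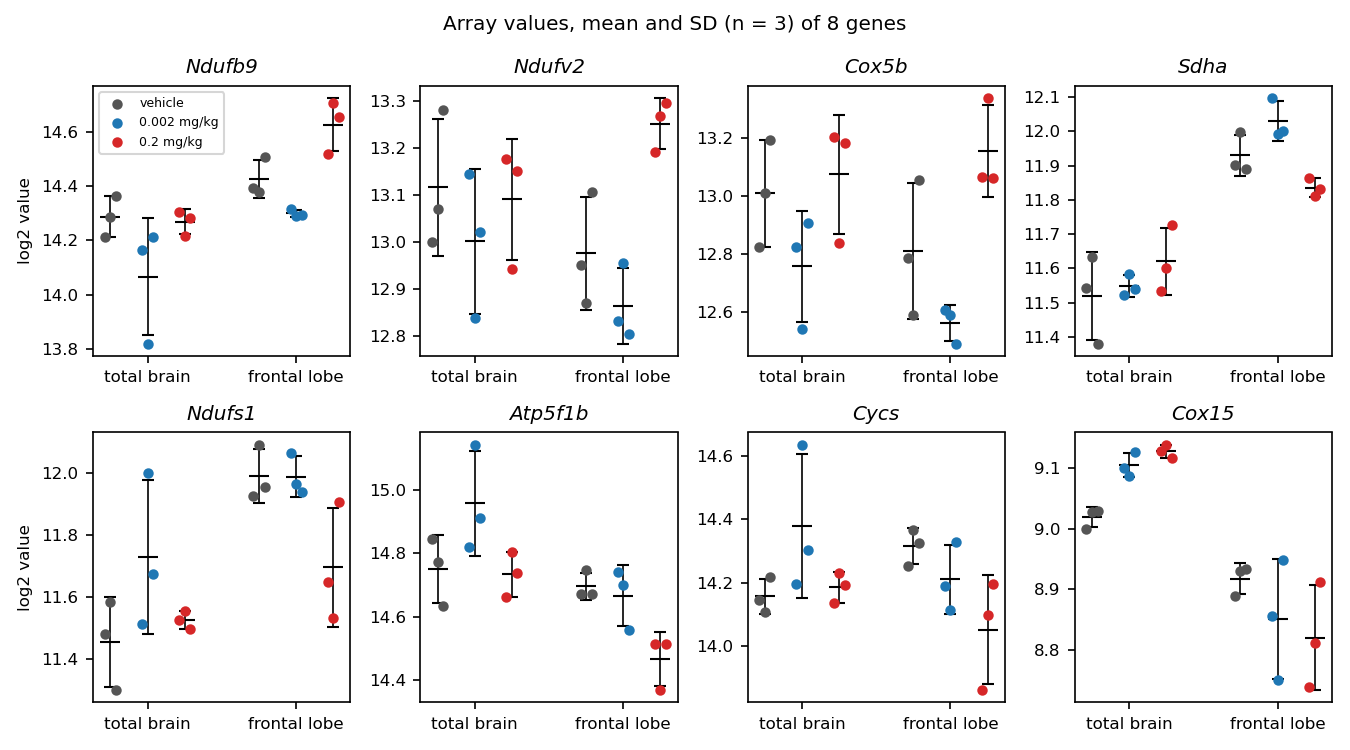
Log2 values (y axes, one scale per gene, not starting at 0) of 8 genes on each array, with bars for the mean and SD (n = 3), by tissue and dose. Ndufb9, Ndufv2 and Cox5b lie higher and Sdha lower at 0.2 than at 0.002 mg/kg in frontal lobe, Ndufs1, Atp5f1b and Cycs lie lower there, and Cox15 is higher in both BDE-47 groups than in vehicle in total brain.

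The 4 calls rested on the full set of arrays. Without any 1 of the 3 arrays at 0.002 mg/kg, 0 genes passed in limma, beside 0.124% to 0.289% of all probes. Without replicate 2 at 0.2 mg/kg 0 passed (beside 0.959%). Without replicate 1 of that dose 1 passed (1.30%, beside 1.81%), and without its replicate 3 there were 3 (3.90%, beside 3.65%). The direction did not turn in any of these fits: Ndufb9 stayed between 0.29 and 0.38, Ndufv2 between 0.36 and 0.43, Cox5b between 0.50 and 0.64 and Sdha between -0.21 and -0.16. Ndufb9 passed in 2 of the 6 fits and the other 3 genes in 0 of 6. Other settings changed which genes passed. After quantile normalisation Cox5b was lost (adjusted p = 0.0505), and Sdha was lost among the brighter 50% of probes (0.0551), with all 18 arrays in the fit (0.0746) and with the trend and robust options of limma's eBayes (0.322), which also lost Ndufb9 (0.0650). With the replicate number as a block 0 of the 4 passed (0.0704 to 0.122). Ndufv2 held under all of these settings but the block.

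Markers of brain cell types differed between the same groups of frontal lobe. Over all probes, 1.43% were called higher and 1.44% lower at 0.2 against 0.002 mg/kg (9.33% and 9.40% at an unadjusted p under 0.05 in limma). Bright probes passed more often, as given above. Of 11 neuron markers, all measured with a mean of at least 8, 10 were below 0 at 0.2 against 0.002 mg/kg and 5 of them fell (Syt1, Syp, Snap25, Nefl and Slc17a7). Their summed linear signal was 92140 to 97692 in vehicle arrays, 100508 to 108490 at 0.002 mg/kg and 64139 to 81041 at 0.2 mg/kg. Of 9 microglia markers, 2 of them near the floor, 8 were above 0 and 0 passed (5 higher and 1 lower at an unadjusted p under 0.05 in limma), with sums of 7612 to 9318, 7341 to 8611 and 9094 to 13806 in the same order. Of 8 markers of meninges and fibroblasts, all above 0, Igf2 and Igfbp2 rose, and the sums were 13635 to 22230, 14454 to 15523 and 21565 to 29302. The 3 red blood cell markers were all above 0 without passing (3 higher at an unadjusted p under 0.05 in limma), with sums of 60098 to 88711, 54946 to 70588 and 84955 to 103028, so that the doses did not overlap. In astrocyte, myelin and endothelial lists 0 genes passed (1, 0 and 0 at an unadjusted p under 0.05 in limma). With 1 of the 6 arrays left out, Slc17a7 and Igfbp2 passed in 5 of 6 fits, Nefl in 3, Syt1 in 2 and Syp, Snap25 and Igf2 in 1 each. Of the 65 ribosomal protein genes, 58 were above 0 and 12 rose. The part of these shifts in the differences of the respiratory genes was not tested.

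Against vehicle, neither dose moved a member past the threshold in frontal lobe. At 0.2 mg/kg, 0 of 77 genes passed, beside 1.14% of all probes, and at an unadjusted p under 0.05 limma gave 8 genes higher (beside 7.55% of probes) and 8 lower (beside 7.44%). The median over the 77 genes was 0.02, with 45 above 0. Nearest to the threshold was Ndufv2, described above, followed by Atp5f1b and Ndufb9 (0.20, adjusted p = 0.121). Cox5b differed by 0.34 (adjusted p = 0.227) and Sdha by -0.10 (adjusted p = 0.324), in each case with the 0.2 mg/kg arrays beyond the vehicle arrays. Cox6a2, known as the muscle isoform of a complex IV subunit and dim here, read 8.18, 8.32 and 8.31 in vehicle and 8.41, 8.71 and 8.50 at 0.2 mg/kg, also without overlap (adjusted p = 0.227). Without vehicle replicate 3, the brightest vehicle array for these genes, 4 genes passed (5.19%, beside 4.60% of all probes), and without replicate 3 at 0.2 mg/kg 1 did (1.30%, beside 1.49%), shares near those of all probes.

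At 0.002 mg/kg in frontal lobe, 0 of 22523 probes passed (0%). At an unadjusted p under 0.05, limma gave 10 genes lower (beside 2.10% of all probes) and 3 higher (beside 3.01%). The median difference was -0.11 and 66 of 77 genes lay below 0, among them 29 of 30 complex I subunits (median -0.13). Over all probes 49.5% lay below 0. The median was -0.028 without vehicle replicate 3, with 48 genes below 0. Atp5po had the smallest p. It read 14.84, 14.87 and 14.75 in vehicle and 14.64, 14.65 and 14.68 at 0.002 mg/kg, without overlap, a difference of -0.16 (SE 0.04, adjusted p = 0.910 in limma). Lower in every array than in any vehicle array were, among others, Ndufs5 (-0.27) and Ndufa11 (-0.30). So were the complex IV subunits Cox8a (-0.21) and Cox5a (-0.19) and the small ATP synthase subunit Atp5mk (-0.41). Each of these had an adjusted p of 0.910 in limma. Sdhaf3 and Ndufb9 also lay below all vehicle arrays, and such separation was not counted over all probes. Ndufaf7, a methyltransferase of complex I assembly, was the gene furthest to the other side (0.25, adjusted p = 0.910).

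In total brain no dose comparison moved any probe past the threshold. At 0.002 mg/kg against vehicle, 0 probes passed (0%), and at an unadjusted p under 0.05 limma gave 4 members higher (beside 3.34% of probes) and 4 lower (beside 3.18%). The median over the 77 genes was -0.10, with 59 below 0 beside 50.7% of all probes, and 27 of 30 complex I subunits lay below 0 (median -0.12). The array of replicate 2 in this group stood apart. Without it the median was -0.05, with 60 genes below 0, and without vehicle replicate 3 it was also -0.05, with 55 below 0. Microglia markers were low on the same array (median deviation -0.28, against 0.01 and 0.01 on the other arrays of the group), as were the ribosomal protein genes, while myelin and astrocyte markers were high on it (0.230 and 0.171). The summed neuron markers did not overlap between the groups, at 59962 to 69411 in vehicle and 70911 to 84728 at 0.002 mg/kg, with 9 of 11 markers above 0 and 0 called (4 higher at an unadjusted p under 0.05 in limma). The part of these markers in the result was not tested.

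On that array most respiratory genes were low and a few were high. Ndufs1 read 11.48, 11.59 and 11.30 in vehicle and 11.51, 12.00 and 11.67 at 0.002 mg/kg in total brain. Atp5f1b read 14.84, 14.77 and 14.64 and 14.82, 15.14 and 14.91, and Cycs read 14.15, 14.11 and 14.22 and 14.20, 14.63 and 14.30 in the same groups. All 3 genes were highest on replicate 2 of the 0.002 mg/kg group, and their groups overlapped. Their differences from vehicle were 0.27, 0.21 and 0.22, each at an adjusted p of 0.733. The same genes were on the lower side at 0.2 mg/kg in frontal lobe, so in both tissues they ran against most of the set. Ndufb9 was low on that array (14.17, 13.82 and 14.21, against 14.21, 14.29 and 14.36 in vehicle). Of these, Atp5f1b had an unadjusted p under 0.05 and Ndufs1, Cycs and Ndufb9 did not. Also below that level were Sdhb (-0.19), the ATP synthase c-ring gene Atp5mc2 (-0.25) and Cox7a2l (-0.26), a factor of supercomplex assembly, on the lower side, and the assembly factor Ndufaf4 (0.17) on the higher, again at an adjusted p of 0.733.

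Cox15, which makes the heme A of complex IV, gave the smallest p among the genes for both doses in total brain. It read 9.0, 9.03 and 9.03 in vehicle, 9.10, 9.09 and 9.13 at 0.002 mg/kg and 9.13, 9.14 and 9.12 at 0.2 mg/kg. All 6 arrays of exposed pups lay above the 3 vehicle arrays. The differences were small, 0.09 (SE 0.02, adjusted p = 0.716) and 0.11 (SE 0.02, adjusted p = 0.696) in limma, and share the vehicle arrays. In frontal lobe Cox15 read 8.89, 8.93 and 8.93, 8.86, 8.75 and 8.95 and 8.74, 8.81 and 8.91 in the same order of groups, with overlapping arrays. The difference between tissues in the 0.2 mg/kg response was -0.21 (SE 0.06, adjusted p = 0.199).

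At 0.2 mg/kg in total brain 0 probes passed (0%), with 3 members higher (beside 2.11% of probes) and 2 lower (beside 2.21%) at an unadjusted p under 0.05 in limma. The median was 0.01 with 43 genes above 0. Uqcrfs1, the Rieske iron-sulfur protein of complex III, read 13.48, 13.51 and 13.61 in vehicle and 13.44, 13.39 and 13.43 at 0.2 mg/kg, without overlap, and the difference was -0.11 (adjusted p = 1.00). Between the doses 0 probes passed (0%), with 8 members higher (beside 2.88% of probes) and 2 lower (beside 2.98%) at an unadjusted p under 0.05. The median was 0.12 with 58 genes above 0, and 0.08 with 60 above 0 without the array of 0.002 mg/kg replicate 2. The accessory complex I subunits Ndufb3 (0.14) and Ndufa5 (0.27) and the assembly factor Ndufaf6 (0.33) were higher without overlap of the doses, among others. So were the complex IV subunit Cox6c (0.22), Atp5mc2 (0.33), the ATP synthase stalk gene Atp5pf (0.28) and Sdhb (0.21). Uqcrfs1 (-0.12) was among those without overlap on the lower side. Each of these genes had an adjusted p of 0.780 in limma. Such separation was not counted over all probes, so it is a description only.

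The tissues were compared gene by gene, since they share no arrays. Between the doses, the differences in total brain and frontal lobe had a Pearson r of 0.70 over the 77 genes, with the same sign in 62 (51 above 0 and 11 below 0 in both). Over all probes r was 0.56, and over the 3320 probes with a mean of at least 10 it was 0.65. For 0.002 mg/kg against vehicle r was 0.43 (same sign in 60 genes), beside 0.22 over all probes and 0.28 over the bright ones. At 0.2 mg/kg against vehicle r was -0.06, with the same sign in 37. Across doses, the total brain response to 0.002 mg/kg and the frontal lobe response to 0.2 mg/kg had r = -0.65, with the same sign in 22 genes, beside -0.44 over all probes and -0.58 over bright ones. Genes are not independent replicates, each axis rests on 3 arrays per group, and the genes of an array share its signal, so these are descriptions.

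**Figure D4:**
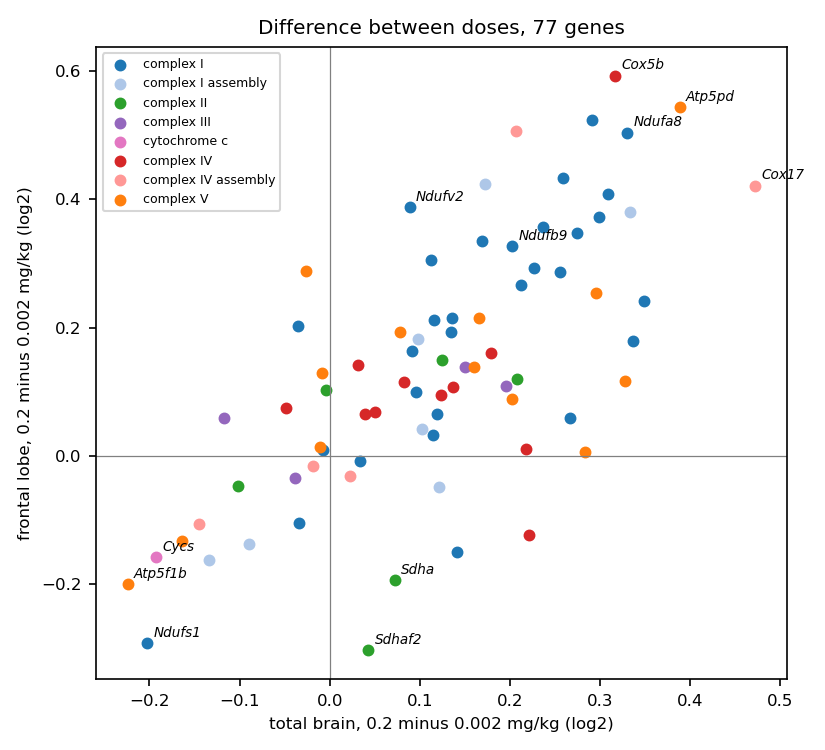
Log2 difference between 0.2 and 0.002 mg/kg in total brain (x axis) and frontal lobe (y axis), 1 point per gene, coloured by complex. Most points lie in the upper right (51 genes above 0 in both tissues), Ndufs1, Atp5f1b and Cycs lie in the lower left, and Sdha and Sdhaf2 lie below 0 in frontal lobe only.

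Tests of the difference between tissues called 0 of 77 genes for each contrast: beside 0% of all probes for 0.002 mg/kg against vehicle, 0.204% for 0.2 mg/kg against vehicle and 0.155% between the doses. At an unadjusted p under 0.05, limma gave 3 members with the higher difference in frontal lobe (beside 2.58% of all probes) and 3 with the lower (beside 2.34%) for the first contrast. It gave 6 (beside 6.10%) and 5 (beside 5.91%) for the next, and 5 (beside 3.92%) and 5 (beside 4.44%) between the doses, all within 3 percentage points of the share of all probes. For the genes called in frontal lobe, the frontal lobe difference between doses minus that of total brain was 0.12 for Ndufb9 (95% confidence interval -0.13 to 0.37), 0.30 for Ndufv2 (0.02 to 0.58), 0.28 for Cox5b (-0.14 to 0.70) and -0.27 for Sdha (-0.45 to -0.09). Their adjusted p values were 0.832, 0.565, 0.763 and 0.340. These genes were chosen by the frontal lobe difference, which is part of this contrast, so the estimates lean away from 0. The intervals are also unadjusted, and they cannot show that the tissues differ. Sdha read 11.52, 11.58 and 11.54 at 0.002 mg/kg and 11.53, 11.60 and 11.73 at 0.2 mg/kg in total brain, where the doses overlapped. Sdhaf2 had the smallest interaction p of the 77 genes between the doses (-0.35, SE 0.09, adjusted p = 0.201).

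The vehicle groups show how these genes differ between the day 41 frontal lobe and the day 10 total brain without BDE-47. In limma 26 of 77 genes passed (33.8%), beside 52.7% of all probes: 15 were higher in frontal lobe (beside 9.01% of probes) and 11 lower (beside 43.7%). The whole table was shifted between the tissues, with a median of -0.07 over all probes and 78.3% of them below 0, and array medians were 7.88 to 7.89 in total brain and 7.83 to 7.84 in frontal lobe, apart from each other. Values at the same rank differed between arrays by a median of 0.00820 within total brain, 0.00854 within frontal lobe and 0.0862 over both tissues, so arrays shared a distribution more closely within a tissue than between tissues. Whether the authors normalised the tissues separately is not given in the sources used here, and differences between tissues hold for the deposited scale. After quantile normalisation over all arrays, 16 of 20 genes that passed were higher in frontal lobe. Of all probes, 10.9% were then called higher and 12.3% lower. After centring on the brighter 50% of probes, 20 of 22 genes that passed were higher. There 13.1% of all probes were called higher, and fewer were called lower than after quantile normalisation. The balance of rises and falls therefore moves with the scaling, and falls that kept their call under both rescalings are named as such. Over 12 alternative fits of this contrast, 11 of the 26 calls held in every one (Atp5f1c, Cox17, Cox19, Cox8a, Ndufa6, Ndufab1, Ndufb3, Ndufs1, Ndufv1, Sdha and Sdhaf3), and 15 were lost in at least 1. Cell type markers differed too: 6 of 11 neuron markers rose and 2 fell, and 3 of 6 astrocyte markers rose. Of 8 markers of meninges and fibroblasts 7 fell, of which 4 did under both rescalings. Of 8 myelin markers 3 rose and 1 fell, and of 9 microglia markers 2 rose. Of 6 endothelial markers 3 fell, 1 of them under both rescalings, and 0 of 3 red blood cell markers passed. Of 65 ribosomal protein genes 36 fell and 2 rose. The part of these lists in the differences was not tested.

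Cox17, the copper chaperone of complex IV, had the largest difference. It read 10.94, 11.24 and 11.26 in total brain and 12.22, 11.96 and 12.63 in frontal lobe and rose by 1.12 (SE 0.22, adjusted p = 0.00116). Cox19, of the same copper pathway, read 11.23, 11.19 and 11.52 and 10.53, 10.48 and 10.86 and fell by 0.69 (SE 0.14, adjusted p = 0.00179), so these partners moved in opposite directions, and both calls held under both rescalings. Sdha read 11.54, 11.63 and 11.38 in total brain and 11.90, 12.00 and 11.89 in frontal lobe. It rose by 0.41 (SE 0.06, adjusted p = 0.000113) without overlap of the groups. Its partners Sdhc and Sdhd fell by 0.18 (adjusted p = 0.0268) and 0.22 (adjusted p = 0.0272), calls that were lost under both rescalings, and the assembly factor Sdhaf3 rose by 0.40 (adjusted p = 0.0116).

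Complex I rises were led by Ndufs1, which read 11.48, 11.59 and 11.30 in total brain and 11.93, 12.09 and 11.95 in frontal lobe (0.53, SE 0.11, adjusted p = 0.00201). Ndufb3 rose by 0.47, Ndufa1, an accessory subunit needed for assembly of the membrane arm, by 0.41 and Ndufab1, the mitochondrial acyl carrier protein, by 0.40, of which Ndufa1 was lost after quantile normalisation (adjusted p = 0.0531). In all, 7 of 30 complex I subunits rose and 2 fell, beside 9.01% of all probes called higher and 43.7% lower. The falls were Ndufv3 (-0.21) and Ndufs4, which is near the floor, and both calls were lost under both rescalings. Among isoform and paralogue sets, Cox4i1, the main form of its subunit, rose by 0.19 and Cox8a by 0.41. Cox6a1, the form found in most tissues, differed by 0.01 (95% confidence interval -0.12 to 0.13), and Cox6a2 by -0.20 (adjusted p = 0.158).

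Complex V had 4 falls and 1 rise among 13 genes, beside 43.7% of all probes called lower and 9.01% higher. Atp5f1c, the gamma subunit of the central stalk, read 13.29, 13.35 and 13.30 in total brain and 12.81, 12.73 and 13.04 in frontal lobe and fell by 0.45 (SE 0.08, adjusted p = 0.000361), also under both rescalings. Of the genes for the identical c subunit of the rotor ring, Atp5mc1 fell by 0.44 (adjusted p = 0.0171), lost after centring, and Atp5mc2 differed by -0.11 (adjusted p = 0.522). Atp5mc3, which lay near the floor, was another of the falls, and its call was lost under both rescalings. Atp5f1a, the alpha subunit, fell by 0.23, a call lost under both rescalings, and Uqcrfs1 fell by 0.23, lost after centring. Atp5pf was the complex V gene that rose (0.37, adjusted p = 0.0174).

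**Figure D5:**
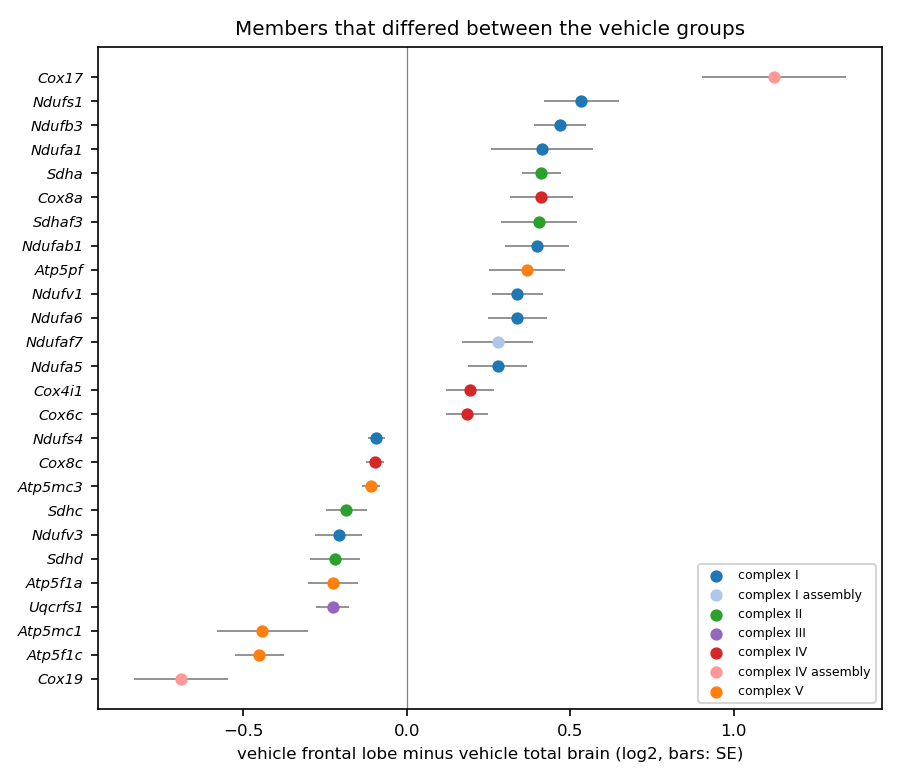
Log2 difference (x axis, vehicle frontal lobe minus vehicle total brain) of the 26 genes that passed, with SE bars, coloured by complex. Cox17 is the largest rise at 1.12, and Cox19 the largest fall at -0.69.

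Other genes of the pathway outside the symbol rule were counted from lists. Of 22 measured assembly factors and partners, Fmc1, which serves ATP synthase assembly, rose by 0.83 (SE 0.15, adjusted p = 0.0298) and Atpaf2, the assembly factor of the alpha subunit, by 0.20 (SE 0.04, adjusted p = 0.0436) between the doses in frontal lobe, 17 of the 22 were above 0 (9.09% passed, beside 2.87% of all probes), and none passed in the other dose comparisons (limma; 0 to 5 in either direction at an unadjusted p under 0.05). Of 14 genes of the citric acid cycle and pyruvate dehydrogenase, 0 passed between the doses in frontal lobe, and 10 were below 0. At an unadjusted p under 0.05 in limma 1 was higher and 5 were lower, beside 9.33% and 9.40% of all probes. Of 9 carriers, porins and creatine kinases, 0 passed there, with 1 higher and 1 lower unadjusted, beside the same shares. Of 12 regulators of mitochondrial biogenesis, Ppargc1a, the coactivator that drives the nuclear respiratory factors, fell by 0.35 at 0.2 mg/kg against vehicle (SE 0.04, adjusted p = 0.0179) and by 0.49 between the doses (SE 0.04, adjusted p = 0.00511) in frontal lobe. Ppargc1a was the only 1 of the 12 called in each contrast, beside 1.14% and 2.87% of all probes. These contrasts share the 0.2 mg/kg arrays. With 1 array left out, Ppargc1a passed in 6 of 6 fits between the doses and in 2 of 6 against vehicle, Fmc1 in 2 of 6 and Atpaf2 in 0 of 6. Between the vehicle groups Ppargc1a rose by 0.26 and Nrf1 fell by 0.12 in frontal lobe (adjusted p = 0.00816 and 0.00458), and the Nrf1 call was lost under both rescalings. The porins Vdac1, Vdac2 and Vdac3 fell by 0.49, 0.32 and 0.46, and Vdac3 was lost after centring (adjusted p = 0.0580).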

How the data were processed

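RNA was column-purified and biotin-labelled cRNA was hybridised, per the labels' protocols. Per the submitters' processing notes the authors used lumi, and their deposited table has a log2-like scale; how lumi was set (version, background, transformation, normalisation, and whether tissues were normalised together) is not given in the sources, and no detection p-values were used. Near the floor such a scale can compress differences.

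Values were used without further filter. With limma 3.58.1 (R 4.3.3), lmFit and eBayes were run on all 22523 probes, within each tissue on its 9 arrays for doses and on all 18 arrays for tissue contrasts. A gene passed where its p, adjusted by Benjamini and Hochberg over the whole table, was under 0.05. The fits were tested on simulated data. Figures were drawn in Python 3.11.15. Pups of a group came from different litters, and 3 arrays per group limit the precision.

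Genes carry the symbols of the platform annotation; all 77 matched by Entrez identifier with the same symbol in the RefSeq gene table. Named are the genes that passed between doses, the 8 largest rises and falls between vehicle groups, and paralogue sets. The 2 smallest unadjusted p-values per complex and dose comparison were candidates, and only some of those genes are named. Genes named for running against the set were chosen after their values were seen. So were Ndufs1, Ndufa11, Ndufb6, Ndufs5 and Cox17 between frontal lobe doses, and complex II genes and Atp5pf beside these. Overlap of arrays between groups was described for named genes and was not counted over all probes. From the ribosomal list, 10 symbols that its pattern also matched (S6 kinases and the like) were left out after values were seen. Members, gene lists and alternatives were chosen with earlier results of these data known. Alternatives were each array left out, quantile normalisation, centring, only the brighter 50% of probes, the trend and robust options of eBayes, the replicate number as a block, a fit on other arrays, and a threshold of 0.1.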

Additional observations from a re-analysis of the deposited data

How the results depend on the processing

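Between the doses in frontal lobe, 4 genes passed, among 646 probes called. Among the brighter 50% of probes 9 of 71 genes passed (3 of the 4, without Sdha), where fewer probes were tested and 1182 were called. The eBayes trend and robust options gave 8 (2 of the 4, without Ndufb9 and Sdha), among 1211 probes. At an adjusted p under 0.1 there were 10, among 1624 probes, and with the replicate block 0, among 65. Calls over all probes moved the same way in these settings, and the cause of these shifts was not tested. Quantile normalisation gave 4 (3 of the 4, without Cox5b), among 662 probes, and centring 5 (all 4), among 704. All 18 arrays in the fit gave 5 (3 of the 4, without Sdha), among 1122. Leaving out 1 array gave 0 to 3, beside 0.124% to 3.65% of all probes. At 0.2 mg/kg against vehicle in frontal lobe, 1 gene (Ndufv2) passed at an adjusted p under 0.1, and leaving out 1 array gave 0 to 4. The test of the tissues' difference at 0.2 mg/kg against vehicle gave 0 to 1 and the vehicle contrast 18 to 25 when 1 array was left out. The other dose and interaction counts remained 0 under each alternative run. Over all probes, calls between the doses in frontal lobe went from 646 to 28 without 0.002 mg/kg replicate 2, 65 with the replicate block and 1211 with trend and robust options, and against vehicle at 0.2 mg/kg from 257 to 27 without vehicle replicate 2, 43 with the block and 1036 without vehicle replicate 3. In the vehicle contrast they went from 11866 to 5226 after quantile normalisation, 5433 after centring and 5438 among the brighter 50%.

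Medians over the genes kept their sign under quantile normalisation, centring and the brighter 50% of probes. With 1 array left out they ran from -0.142 to -0.0466 (0.002 mg/kg), -0.0241 to 0.0714 (0.2 mg/kg) and 0.0720 to 0.184 (between doses) in total brain, and from -0.156 to -0.0282, -0.0289 to 0.0907 and 0.0742 to 0.170 in frontal lobe. Of 1145 alternative fits over 94 named gene comparisons, 3 reversed, all of Cox6a1 in the vehicle contrast, which ran from -0.0398 to 0.0441 with 1 array left out. Deviations of same-numbered arrays from their group means correlated at -0.294 to 0.44 in total brain (6 of 9 pairs over 0.1). In frontal lobe they correlated at -0.249 to 0.105 (1 of 9). Differently numbered arrays ran from -0.527 to 0.516 in total brain and from -0.102 to 0.302 in frontal lobe. With 3 arrays per group, these values cannot decide whether the replicate numbers mark a pairing or a batch. Of genes outside the set, rescaled as an alternative chosen after seeing the data, Uqcc2 in the vehicle contrast turned from -0.06 to 0.0254 after centring. Averaging a gene's probes gave no separate value, since each gene has 1. Genes near the floor, such as Cox20 and Atp5mc3, have little signal over background.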

Other observations

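Between the vehicle groups, 52.7% of all probes passed (9.01% higher and 43.7% lower in the day 41 frontal lobe), and the shares called in other lists of mitochondrial genes are read against these. Falls move with the scaling, so the lists were also counted after quantile normalisation and after centring, an alternative chosen after seeing the data, where 12.3% of all probes were lower after the former and fewer after the latter.

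Of 14 genes of the citric acid cycle and pyruvate dehydrogenase, 3 rose and 4 fell (50.0%, near the share of all probes). The 3 rises held under both rescalings: Sucla2, a subunit of succinyl-CoA synthetase, by 0.51 (SE 0.11, adjusted p = 0.00201 in limma), pyruvate carboxylase, Pc, by 0.32 (SE 0.10, adjusted p = 0.0141) and Idh3b, a subunit of isocitrate dehydrogenase, by 0.30 (SE 0.09, adjusted p = 0.0163). Of the falls 2 held: citrate synthase, Cs, fell by 0.53 (SE 0.15, adjusted p = 0.00982) and Pdhx, the E3-binding protein of pyruvate dehydrogenase, fell by 0.34 (SE 0.06, adjusted p = 0.000627).

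Of 9 carriers, porins and creatine kinases 6 fell, 5 after quantile normalisation and 3 after centring. The uncoupling protein gene Ucp2 (-0.57, adjusted p = 0.00190), Vdac1 and Vdac2 held under both. The adenine nucleotide carrier Slc25a4 (-0.13, adjusted p = 0.0149) was lost under both and Slc25a5 (-0.19, adjusted p = 0.0220) after centring. Of 12 regulators of biogenesis 2 rose and 5 fell (58.3%, near the share of all probes), and 2 of the falls held under both rescalings: Tfam, the factor that packages mitochondrial DNA (-0.30, adjusted p = 0.00438), and Esrrg (-0.36, adjusted p = 0.00418).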
